A study of Mus musculus with 2 samples.

Results

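Intermediate filament and nuclear lamin genes were described in B16/BL6 and B16, mouse melanoma cell lines sequenced as 1 library each in a search for genes related to metastasis. The 10 members were the rows whose gene symbol was Vim, Nes, Des, Lmna, Lmnb1, Lmnb2, Krt8, Krt18, Krt83 or Prph, and all 10 were found among the 23284 symbols of both files. B16 is a melanoma line of the C57BL/6 mouse strain and B16/BL6 is an invasive subline of it. B16/BL6 cells were grown in RPMI medium and B16 cells in DMEM, both with serum and antibiotics, so an effect of the medium cannot be told apart from one of the line. The labels name no engineered allele and no drug treatment for either line. Expression was given in FPKM, a fragment number divided by transcript length and by library size, a scale on which genes of different length can be compared. With 1 library per line no value has a replicate error, no difference was tested, and all differences compare these libraries. In B16/BL6, 10367 symbols reached 1 FPKM, and in B16 10413 did. The low values put the depth at about 11114927 fragments in B16/BL6 and 10029499 in B16.

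Intermediate filaments are rope-like polymers that give cells and nuclei mechanical strength. Type I and type II keratins pair with each other in epithelial cells, type III proteins such as vimentin polymerise alone in mesenchymal, muscle and glial cells, and type IV proteins such as nestin and the neurofilaments serve progenitor and nerve cells. Lamins form the meshwork under the inner nuclear membrane, with lamin A and lamin C made from Lmna and the B-type lamins from genes of their own. Melanocytes arise from the neural crest, and melanoma cells commonly carry vimentin as their main cytoplasmic filament.

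By transcript level, Vim stood at the top of the cytoplasmic filament genes and Lmna at the top of the lamin genes in both libraries. Krt8 and Krt18, the simple epithelial keratins, were listed at 0 in both. Nestin was the member at least 2-fold lower in B16/BL6, and the row named Krt83, a hair keratin symbol, was the member at least 2-fold higher. The other members at 1 FPKM or more lay within 2-fold. The stretches around the annotated transcription starts of Vim, the member with the highest level, of Nes, the member that was lower, and of Krt8 and Krt18, the members listed at 0, are shown here from RefSeq on build GRCm38.p6, each running from 90 bases before the start to 10 bases after it on the gene's own strand. Capitals mark matches to 2 motifs searched on both strands, the core of the classic promoter box TATAA, which reads TTATA on the other strand, and the core of the Sp1-type GC box GGGCGG, which reads CCGCCC on the other strand. In Vim and Krt8 the forward and reverse TATAA matches overlap.
Vim (chr2:13574221-13574320, plus strand): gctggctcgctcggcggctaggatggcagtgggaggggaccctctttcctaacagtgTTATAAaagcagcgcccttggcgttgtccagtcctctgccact
Nes (chr3:87971003-87971102, plus strand): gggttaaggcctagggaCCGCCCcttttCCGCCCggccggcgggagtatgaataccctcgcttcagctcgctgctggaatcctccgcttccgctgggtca
Krt8 (chr15:102004333-102004432, minus strand): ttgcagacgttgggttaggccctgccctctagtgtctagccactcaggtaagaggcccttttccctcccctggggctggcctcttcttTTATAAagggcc
Krt18 (chr15:102028126-102028225, plus strand): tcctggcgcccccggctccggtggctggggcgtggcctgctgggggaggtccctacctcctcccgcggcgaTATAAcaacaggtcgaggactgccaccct

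The Vim and Krt18 stretches held TATAA at 32 and 19 bases before the annotated start, and the Krt8 stretch held it across the annotated start itself. The Nes stretch had no TATAA match but 2 GC-box matches. Of all 32851 promoter windows of this kind, 10.1% held TATAA and 24.6% held GGGCGG. The first motif thus stood at the member with the highest level as well as at the keratins listed at 0. These matches describe the sequence and do not show that a factor binds there.

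Of the 10 members, 7 reached 1 FPKM in at least 1 library, Prph stayed below 1 FPKM in both, and Krt8 and Krt18 were listed at 0 in both. The difference of a gene was taken on the log2(FPKM + 1) scale, as the B16/BL6 value minus the B16 value, a scale that understates the change of low genes. A gene was called higher or lower at 2-fold among the 10709 genes that reached 1 FPKM in either library. Of the 7 members, 1 was called higher and 1 lower, against 3.31% of all 10709 genes called higher and 3.16% called lower. With 7 genes, a single call in each direction cannot be read against those shares. The median difference of the 7 was -0.01, and that of all 10709 genes was 0.01. Krt83 passed the minimum only through the library in which it was high, so that a difference was built into its selection.

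**Figure D1:**
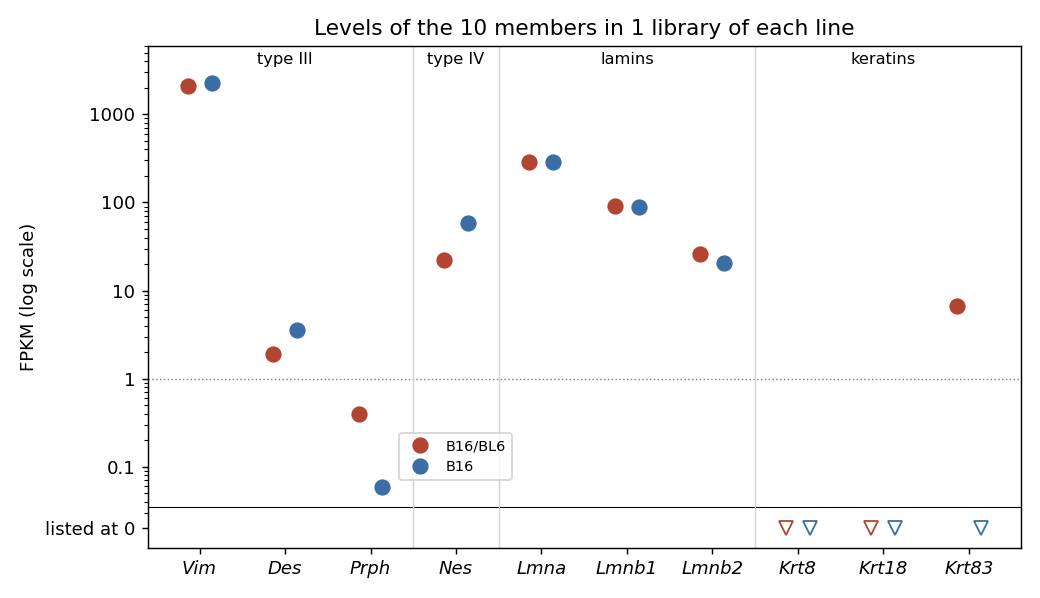
FPKM of the 10 members on a log axis in B16/BL6 (red, left) and B16 (blue, right), 1 library each, grouped by filament type. Open triangles in the bottom strip are values listed at 0, and the dotted line is 1 FPKM. Vim stands above all other members in both lines, Nes is lower in B16/BL6, and Krt83 is above 0 in B16/BL6 alone.

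The type III filament genes stood at very different levels. Vim, which encodes vimentin, the filament of mesenchymal and neural crest-derived cells (chromosome 2, 13574311 to 13582826, GRCm38), was at 2090 FPKM in B16/BL6 and 2296 FPKM in B16. It ranked 20th of the 23284 symbols by level in B16/BL6 and 14th in B16, and its difference was -0.14. For comparison, the actin gene Actb, another abundant cytoskeletal gene, was at 1747 FPKM in B16/BL6 and 1789 FPKM in B16. Markers of fibroblasts, mesenchymal cells that also make vimentin, were low but uneven between the lines. Of 8 such genes, 4 were listed at 0 in both libraries, among them Dcn and Col3a1, and the sum of all 8 was 13.5 FPKM in B16/BL6 and 1.00 FPKM in B16. Their 2 genes at 1 FPKM or more were Pdgfrb, at 7.43 FPKM in B16/BL6 and 0.104 FPKM in B16, and Col1a2, at 5.32 FPKM in B16/BL6 and 0.367 FPKM in B16. Both were called higher, beside 3.31% of all 10709 genes. Both passed the minimum through B16/BL6 alone, so that a difference was built into their selection. The part of these genes in the Vim level was not tested. The leukocyte markers, which can also come with vimentin, summed to 0.173 FPKM in B16/BL6 and 0.0382 FPKM in B16. Vim alone held 77.8% of the FPKM summed over all listed filament and lamin genes in B16/BL6 and 78.9% in B16.

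Des, which encodes desmin, the filament that links the contractile units of muscle cells (chromosome 1, 75360292 to 75368579), was at 1.90 FPKM in B16/BL6 and 3.59 FPKM in B16. The noncoding gene Gm15179, which overlaps its end, was listed at 0 in both. The difference of Des, -0.66, did not reach 2-fold, and by an approximate estimate of depth its values rested on about 64 fragments in B16/BL6 and 109 in B16. Its neighbour Speg, which encodes a kinase of striated muscle and was named after its values were seen, was at 13.6 FPKM in B16/BL6 and 25.7 FPKM in B16. Muscle markers were few and low in both lines. Of 10 such genes, 6 were listed at 0 in both libraries, among them the muscle regulators Myod1 and Myog, and the sum of all 10 was 2.33 FPKM in B16/BL6 and 7.83 FPKM in B16. Most of that sum was Tnnt2, a troponin gene of the contractile apparatus, at 2.13 FPKM in B16/BL6 and 6.33 FPKM in B16. The other marker at 1 FPKM or more was Myh3, at 0.0568 FPKM in B16/BL6 and 1.05 FPKM in B16. Myh3 passed the minimum through B16 alone, so that a difference was built into its selection. Of these 2, Tnnt2 was called lower and 0 were called higher, beside 3.16% and 3.31% of all 10709 genes. The difference of Myh3 was -0.96, and -1.49 on the TPM scale. These markers and Des were lower in the same library, and the part of any muscle-type expression in the Des value was not tested.

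Prph, which encodes peripherin, a filament of peripheral nerve cells (chromosome 15, 99053579 to 99058978), was at 0.397 FPKM in B16/BL6 and 0.0580 FPKM in B16. By the same estimate of depth these values rested on about 8.21 fragments in B16/BL6 and 1.08 in B16, too few to read a difference. All 8 neuron markers, among them Snap25 and Stmn2, were listed at 0 in both libraries. The remaining type III gene, Gfap of astrocytes and other glia, was no member and stood at 0.898 FPKM in B16/BL6 and 1.41 FPKM in B16, a difference of -0.34.

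Nes, which encodes nestin, a type IV filament of neural and other progenitor cells that copolymerises with vimentin (chromosome 3, 87971093 to 87980451), was at 22.2 FPKM in B16/BL6 and 58.8 FPKM in B16. The ratio of B16/BL6 to B16 was 0.378, and the difference was -1.36. It ranked 178th from the lowest among the differences of the 10709 genes. It remained past 2-fold under all 7 alternative settings, from -1.55 on the TPM scale to -1.23 with a pseudocount of 5. Since Vim differed little, the ratio of Vim to Nes levels was 94.0 in B16/BL6 and 39.0 in B16. No other type IV gene reached 1 FPKM. The neurofilament genes Nefl and Nefm and the internexin gene Ina were listed at 0 in both libraries, Nefh was listed at 0 in B16/BL6 and at 0.0239 FPKM in B16, and Synm, which encodes synemin, was at 0.365 FPKM in B16/BL6 and 0.308 FPKM in B16.

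The neighbours of Nes differed from it. Crabp2, which encodes a retinoic acid-binding protein and is the nearest gene of the files on one side, was at 2.13 FPKM in B16/BL6 and 0.262 FPKM in B16, a difference of 1.31 in the other direction. Bcan, which encodes the matrix proteoglycan brevican and lies on the other side, was at 20.6 FPKM in B16/BL6 and 23.3 FPKM in B16, a difference of -0.17.

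The lamins were the most even group. Lmna, whose transcripts encode lamin A and lamin C (chromosome 3, 88481148 to 88509932), was at 286 FPKM in B16/BL6 and 288 FPKM in B16, a difference of -0.01. The files give 1 value per symbol, so lamin A and lamin C transcripts cannot be told apart. Lmnb1, which encodes the B-type lamin B1 (chromosome 18, 56707813 to 56753424), was at 92.2 FPKM in B16/BL6 and 89.4 FPKM in B16, a difference of 0.04. Lmnb2, which encodes lamin B2 (chromosome 10, 80901363 to 80918245), was at 26.2 FPKM in B16/BL6 and 20.6 FPKM in B16, a difference of 0.33.

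The lamin differences were small enough for scaling to set their signs. Genes of chromosome 10 had a median difference of 0.41 over 528 genes, and when every difference was taken from the median of its chromosome that of Lmnb2 was -0.08. Genes of chromosome 18 had a median of -0.29 over 269 genes, and with that centring Lmnb1 stood at 0.34, while on the TPM scale, where each library sums to 1000000, it stood at -0.13. No lamin passed 2-fold under any setting tried. What sets the medians of these chromosomes was not tested.

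The order of the lamins was the same in both lines. Lmna made up 70.7% of the summed lamin FPKM in B16/BL6 and 72.4% in B16, Lmnb1 made up 22.8% in B16/BL6 and 22.4% in B16, and Lmnb2 made up 6.47% in B16/BL6 and 5.17% in B16. The ratio of Lmna to the B-type lamins together was 2.41 in B16/BL6 and 2.62 in B16. The summed lamin level was 404.0 FPKM in B16/BL6 and 398.4 FPKM in B16. These shares do not change when all values of a library are multiplied by the same factor, but no replicate gives their error. They were taken without chromosome centring, which moved the lamins by different amounts.

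**Figure D2:**
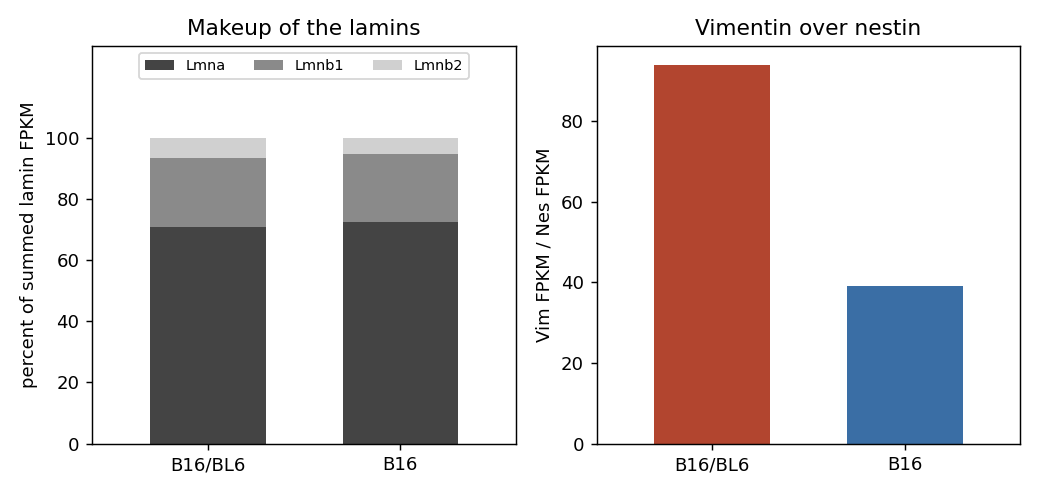
Left, percent of the summed lamin FPKM in Lmna, Lmnb1 and Lmnb2 in B16/BL6 and B16. Right, ratio of Vim FPKM to Nes FPKM in the same libraries, 94.0 in B16/BL6 and 39.0 in B16. The lamin bars are nearly alike, whereas the vimentin to nestin ratio is not.

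The simple epithelial keratins Krt8 (chromosome 15, 101996711 to 102004342) and Krt18 (chromosome 15, 102028216 to 102032026), a type II and type I pair whose genes lie side by side, were listed at 0 in both libraries. A listed 0 is a weak statement in these files. Gapdh, a glycolytic gene that every cell uses, was listed at 0.561 FPKM in B16/BL6 and 0.531 FPKM in B16, the peptidyl-prolyl isomerase gene Ppia at 0.155 FPKM in B16/BL6 and 1.03 FPKM in B16, and the ribosomal protein gene Rpl26 at 0 in both. Of 75 ribosomal protein genes, 6 were below 1 FPKM in both libraries. Gapdh has many near copies: 155 annotated pseudogenes matched its transcript over at least 100 bases at 90% identity or more, and other genes covered 88.2% of it in this way. By the same search, other genes covered 51.8% of the Krt8 transcript and 88.3% of the Krt18 transcript, each through matches that included 1 pseudogene, but none of the transcripts of Vim, Nes, Lmna, Lmnb1 and Prph. Exact sharing differed from this coverage. Of all 50-base stretches, 82.5% in Gapdh, 29.7% in Krt8 and 0.72% in Krt18 were also found in other genes. Actb, with 59.3% covered and 14.2% of such stretches shared, was at 1747 FPKM in B16/BL6 and 1789 FPKM in B16. The sources used here do not say how the authors treated reads that fit several places, and the part of such reads in the Krt8 and Krt18 zeros was not tested.

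Other epithelial genes were also listed at or near 0. Of 10 epithelial markers, 8 were listed at 0 in both libraries, among them the adhesion gene Epcam and the keratins Krt5, Krt7, Krt14 and Krt19. The sum of all 10 was 0.165 FPKM in B16/BL6 and 0.132 FPKM in B16. All 7 melanocyte markers, by contrast, were at 10 FPKM or more in both, and their sum was 18525 FPKM in B16/BL6 and 12082 FPKM in B16. Of the 7, 5 had a difference above 0 and 2 were called higher in B16/BL6, Tyr and Pmel, while 0 were called lower. Of all 10709 genes, 5415 had a difference above 0, 3.31% were called higher and 3.16% lower. Tyr, at 164 FPKM in B16/BL6 and 10.6 FPKM in B16, had the largest difference of the 7, 3.83. It was 3.76 with its chromosome centred and 3.72 on the TPM scale. The call of Pmel depended on the scaling. Its difference of 1.10 was 0.69 with chromosome 10, its own, centred, and 0.93 on the TPM scale.

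The row named Krt83 was at 6.75 FPKM in B16/BL6 and listed at 0 in B16. Its difference was 2.95, which ranked 38th from the highest of the 10709 genes, but this figure depends on the pseudocount, from 1.23 with a pseudocount of 5 to 6.10 with one of 0.1, and no ratio is given against a listed 0. The symbol needs care. In the RefSeq table of GRCm38, the gene now named Krt83 carries the older name 5430421N21Rik, which the files list as a row of its own at 0 in both libraries, while Krt83 is an older name of Krt87, which the files do not list under that name. The row was therefore most likely that of the gene now called Krt87, and no position is given for it. Both belong to a cluster of type II hair keratin genes of similar sequence, and other genes covered 96.8% of the Krt87 transcript and 78.7% of the Krt83 transcript in the search above. Of their 50-base stretches, 36.9% in Krt87 and 23.2% in Krt83 were found exactly in other genes. With the Krt87 transcript length, the B16/BL6 value rested on about 171 fragments.

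Krt85, another type II hair keratin, was at 1.53 FPKM in B16/BL6 and listed at 0 in B16, a difference of 1.34. The sequence-related Krt81 and Krt86 were listed at 0 in both libraries, as was Gm6042, a transcribed pseudogene that the table places beside the gene now named Krt83. None of the type I hair keratins that pair with type II proteins in the hair shaft, Krt31 to Krt36, was above 0 in either library, nor was Hoxc13, a transcription factor gene of the hair follicle. Of the 10 hair cortex markers, Krt85 was the only gene above 0. No position was found for the symbol Krt85, and its transcript was not searched for sequence shared with other genes.

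Krt80, a type II keratin known from many epithelia (chromosome 15, 101348315 to 101370162), showed the opposite pattern. It was at 6.55 FPKM in B16/BL6 and 29.0 FPKM in B16, a ratio of 0.226 and a difference of -1.99, which ranked 66th from the lowest. It is no member but was the most abundant keratin in B16, and in B16/BL6 it stood beside Krt83. The noncoding gene Gm35853 overlaps it on the other strand, and since the strand setting is not known, reads of both could have been counted together. Among the 28 type I keratins, the usual partners of type II proteins, 26 were listed at 0 in both libraries, and Krt17 and Krt222 were above 0 in B16/BL6 alone, at 0.0630 and 0.0325 FPKM. Other genes covered 4.34% of the Krt80 transcript.

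Over the whole family, 66 of 69 filament and lamin symbols were listed in the files. Of these, 11 reached 1 FPKM in at least 1 library, of which 2 were called higher in B16/BL6, Krt83 and Krt85, and 2 lower, Nes and Krt80, beside the 3.31% of all genes called higher and 3.16% called lower. Both higher calls passed the minimum through B16/BL6 alone, so that their difference was built into their selection, and the list was assembled with results known. All 4 calls were in type II keratins or nestin. The remaining family gene at a high level was Bfsp2, which encodes a beaded filament protein known from the eye lens (chromosome 9, 103424924 to 103480405). It was at 150.4 FPKM in B16/BL6 and 123.6 FPKM in B16, a difference of 0.28, and was the third most abundant gene of the family after Vim and Lmna. The noncoding gene 5830418P13Rik, which overlaps it, was listed at 0 in both libraries. Its lens partner Bfsp1 was listed at 0 in both libraries.

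**Figure D3:**
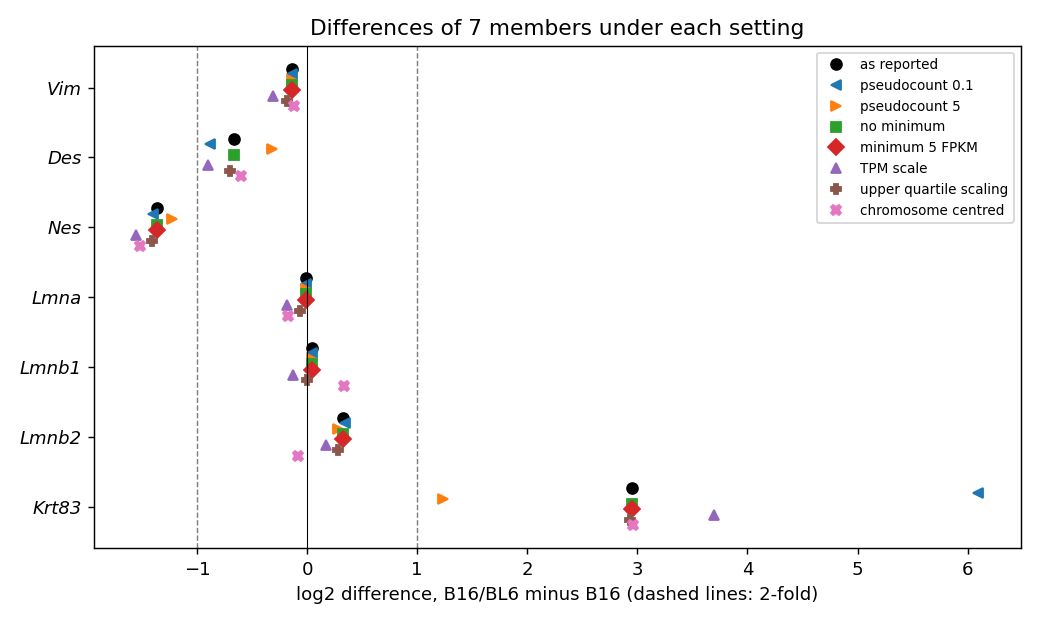
Log2 difference of the 7 members at 1 FPKM or more, B16/BL6 minus B16, as reported (black) and under 7 alternative settings, with dashed lines at 2-fold. Nes and Krt83 stay outside the lines in all settings shown, Vim, Des and Lmna stay below 0 within them, and Lmnb1 and Lmnb2 cross 0. Des has no point with a minimum of 5 FPKM.

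Among genes whose products anchor filaments, none was called on the log2(FPKM + 1) scale, but some lay near the threshold. Of 16 cytolinker and filament partner genes, 9 reached 1 FPKM, and 0 were called higher and 0 lower, beside 3.31% and 3.16% of all genes. With 9 genes, 0 calls cannot be read against those shares. Plec, which encodes plectin, the main linker of vimentin to other structures, was at 13.3 FPKM in B16/BL6 and 13.4 FPKM in B16. Dst, which encodes dystonin, a large linker protein, was at 12.0 FPKM in B16/BL6 and 22.6 FPKM in B16, a difference of -0.86 that reached -1.05 on the TPM scale. Pkp2, which encodes the desmosome protein plakophilin 2, was at 1.47 FPKM in B16/BL6 and 3.48 FPKM in B16, a ratio of 0.422 that is past 2-fold without the pseudocount. The difference of Pkp2 was -0.86 with it, and -1.14 on the TPM scale. Desmosomes are the junctions that hold keratin filaments, and their plakin genes Dsp, Evpl and Ppl were listed at 0 in both libraries. Cryab, which encodes a small heat shock chaperone that binds desmin and vimentin, was at 537 FPKM in B16/BL6 and 395 FPKM in B16, and Pkp4, which encodes a relative of the plakophilins, was at 40.3 FPKM in B16/BL6 and 30.7 FPKM in B16.

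B-type lamins and prelamin A, the precursor of lamin A, but not lamin C, carry a lipid tail that is added and trimmed by dedicated enzymes. All 7 genes of lamin processing reached 1 FPKM, and their differences ran from -0.61 to 0.25. Of the 7, 0 were called higher and 0 lower, beside 3.31% and 3.16% of all genes, shares too small to be read against 7 genes. Zmpste24, which encodes the protease that matures lamin A, was at 35.0 FPKM in B16/BL6 and 30.4 FPKM in B16. Pggt1b, which encodes a subunit of a related lipid transferase, was at 6.72 FPKM in B16/BL6 and 10.8 FPKM in B16, and Narf, which encodes a protein that binds prelamin A, was at 5.08 FPKM in B16/BL6 and 7.76 FPKM in B16. Rce1, which encodes the protease that removes the end of lipid-tailed proteins, and Fntb, which encodes a farnesyltransferase subunit, had differences of 0.25 each.

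The genes of proteins that hold the lamina at the nuclear membrane were not called either. Of 16 symbols, Lmnb1 among them, 15 were listed and all 15 reached 1 FPKM, with 0 called in either direction and a median difference of 0.04. That median was the value of Lmnb1 itself, which is a member. Of all genes, 3.31% were called higher and 3.16% lower, so 0 calls among 15 genes do not set this list apart. The largest difference was that of Tmpo, which encodes lamina-associated polypeptide 2, at 164 FPKM in B16/BL6 and 101 FPKM in B16. Its difference of 0.69 was 0.28 with chromosome 10, its own, centred. Tmem43, which encodes an inner nuclear membrane protein, was at 61.8 FPKM in B16/BL6 and 45.9 FPKM in B16, Banf1, which encodes a DNA-bridging partner of lamins, at 408 FPKM in B16/BL6 and 341 FPKM in B16, and Lemd2, which encodes a membrane protein of the LEM family, at 30.4 FPKM in B16/BL6 and 36.3 FPKM in B16.

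The LINC complex joins the lamina to the cytoskeleton through SUN proteins in the inner membrane and nesprins in the outer membrane of the nucleus. Of its 6 listed genes, 4 reached 1 FPKM and 0 were called in either direction, too few genes to read against the 3.31% and 3.16% of all genes. Sun1 was at 17.9 FPKM in B16/BL6 and 19.8 FPKM in B16, and Sun2 at 23.2 FPKM in B16/BL6 and 26.0 FPKM in B16. The nesprin 1 gene Syne1 was at 12.5 FPKM in B16/BL6 and 5.98 FPKM in B16. The ratio of 2.08 was above 2-fold, but with the pseudocount of 1 the difference was 0.95, just under it, and it was 0.53 with chromosome 10 centred, whereas the nesprin 2 gene Syne2 was at 9.29 FPKM in B16/BL6 and 9.14 FPKM in B16.

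**Figure D4:**
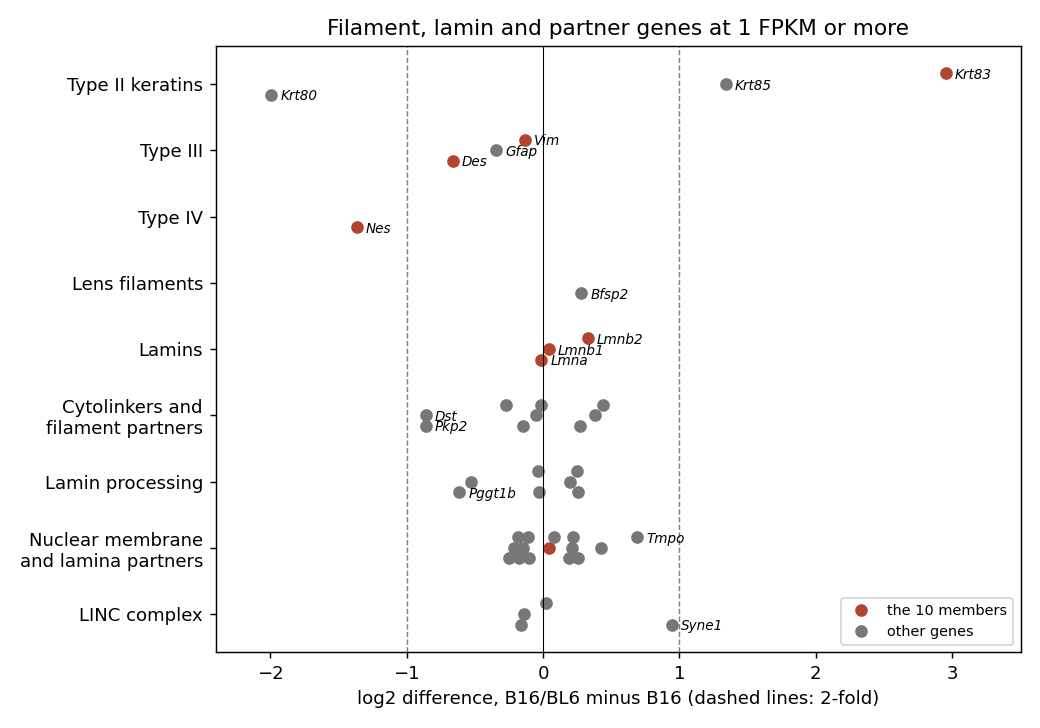
Log2 difference, B16/BL6 minus B16, of each filament, lamin and partner gene at 1 FPKM or more in either library, by group, with members in red, other genes in grey and dashed lines at 2-fold. Points past 2-fold are type II keratins and Nes, and the partner groups lie between -0.86 and 0.95.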

How the data were processed

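RNA of B16/BL6 and B16 cells was made into 1 stranded mRNA library each, per the labels' protocols. The authors deposited FPKM per gene symbol, per the file headers, against mm10. Tools listed in the submitters' processing notes are Cufflinks 2.2.1, SAMtools 0.1.19, Bowtie2 2.2.3 and TopHat2 2.0.13. The sources used here do not give the annotation, the scaling, the strand setting, the handling of multiply placed reads or the depth.

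From those values, log2(FPKM + 1) differences were computed with Python 3.11.15, numpy 2.4.6 and pandas 2.3.3 for genes that reached 1 FPKM in either library, and called at 2-fold. FPKM are not counts and each line had 1 library, so no test was run. The procedure was run on simulated data with known fold changes. These were set well past 2-fold and without noise, so their recovery was fixed in advance. False calls and low genes were not checked in this way. The members and gene lists were chosen with earlier results of these data known. Named were all members, all other filament genes at 1 FPKM, up to 4 partner genes per list with the largest differences and the listed neighbours of 2-fold members. Plec, Zmpste24, Sun1, Sun2, Syne2, Speg, Actb, Gapdh, Ppia, Rpl26, genes listed at 0 and low family genes were added after their values were seen.

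Equal low values differed by a ratio of 0.906 in 150 of 379 genes under 0.1 FPKM, which puts B16/BL6 at 1.10 times the depth of B16. Genes under 0.2 FPKM with 1 annotated transcript over 1500 bases gave about 11114927 fragments in B16/BL6 (75 genes) and 10029499 in B16 (80 genes), taking estimates between 8 and 14 times 1000000, a range chosen after the estimates had been seen. Fragment numbers are approximate, and they were used for no interval or floor.

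Positions and promoters came from RefSeq GRCm38.p6, the assembly of mm10. RefSeq promoters were taken for 8 of 10 symbols. None was found under the symbol Krt83, and promoters on chromosome 18, where Lmnb1 lies, were left out. Transcripts came from GENCODE M21 and were searched against all other genes with blastn 2.17.0, for the longest protein-coding transcript of a gene. Exact 50-base stretches of the same transcripts were also looked up in all other genes, on both strands. Alternatives were pseudocounts of 0.1 and 5, no minimum, a minimum of 5 FPKM, the TPM scale, upper-quartile scaling and centring of each chromosome.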

Additional observations from a re-analysis of the deposited data

How the results depend on the processing

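The calls of Nes as lower and Krt83 as higher held under all 7 alternatives, where centring took Krt83 as a gene of chromosome 15, on which both genes that the symbol can name lie. Without the Krt83 row, an alternative added after the data were seen because of its doubtful symbol, 0 members were called higher and the lower call was the same. The median difference of the members was -0.01 as reported, -0.12 after chromosome centring and -0.18 on the TPM scale. The TPM scale shifted the median of all genes to -0.16. Over all genes, 354 were called higher and 338 lower as reported, 369 and 583 on the TPM scale, 492 and 511 with a pseudocount of 0.1, 151 and 118 with one of 5, and 246 and 212 with a minimum of 5 FPKM. Krt85 was not called with a pseudocount of 5 or a minimum of 5 FPKM, and chromosome centring could not be applied to it, since the tables used here give it no chromosome. Dst and Pkp2 were called lower on the TPM scale, and with a pseudocount of 0.1 so was Pkp2, while Syne1 was called higher. The melanocyte marker Pmel was not called on the TPM scale or after chromosome centring. No paired analysis was possible because each line had 1 library and no test was run. No replicate could be left out for the same reason. Low values limit Des and above all Prph, which rest on few fragments.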

Other observations

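The genes that accompany hair keratins and lens filaments in their own tissues were looked up after the values of Krt83 and Bfsp2 had been seen. All 52 listed hair keratin-associated protein genes, whose products embed keratins in the hair shaft, were at 0 in both libraries. Of 15 lens crystallin, lens membrane and beaded filament genes considered here besides Bfsp2, 1 was above 0, the gap junction gene Gja3, at 22.6 FPKM in B16/BL6 and 14.1 FPKM in B16. These 15 did not include the crystallin gene Cryab, given above among the filament partners. Cryab was at 537 FPKM in B16/BL6 and 395 FPKM in B16, so the list does not show that crystallin genes as a whole were at 0.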
